A study of Caenorhabditis elegans with 12 samples.

Results

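The genes described here are 10 genes of DNA replication and nucleotide synthesis in the nematode Caenorhabditis elegans, namely mcm-2, mcm-3, mcm-4, mcm-5, mcm-6, mcm-7, pcn-1, rnr-1, rnr-2 and tyms-1. They were chosen by name, as genes that dividing germ cells use at the L4 larval stage, and all 10 were found among the 14505 genes of the deposited tables. Polyadenylated RNA was sequenced from synchronised whole animals grown at 20 °C and collected as L4 larvae, in 4 strains with 3 biological replicates each, 12 libraries in all. The N2 strain was the wild type. In the CA-CRTC-1 strain (WBM55) the transgene encodes CRTC-1, a coactivator of the transcription factor CREB, altered by S76A and S179A. In the CA-AAK-2 strain (WBM60) it encodes AAK-2, a catalytic subunit of the energy sensor AMP-activated protein kinase. CA-AAK-2;CA-CRTC-1 animals (WBM66), called the double strain here, carried both transgenes. The promoters that drove the transgenes, and the cells in which they were active, are not given in the sources used here.

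Cells license each replication origin by loading a ring of the MCM proteins MCM-2 to MCM-7, which becomes the helicase that unwinds DNA once S phase begins. PCN-1, the sliding clamp known elsewhere as PCNA, then holds the polymerases on the template, while ribonucleotide reductase (RNR-1 and RNR-2) and thymidylate synthase (TYMS-1) supply the deoxynucleotides. In an L4 hermaphrodite most dividing cells lie in the distal germ line, and further rounds of DNA synthesis take place in vulval, gonadal and seam lineages and in intestinal nuclei that copy their DNA without dividing.

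The values are CPM, counts scaled by the authors to a common library size, and dividing them by the value of a single read gave between 30887631 and 48989013 reads for each library. The 10 genes were covered by 313 to 8525 reads each in a single library, tyms-1 having the lowest number. The reads matched the strain labels. The level of aak-2 was 61.7 ± 5.58 CPM in N2, 2530 ± 102 CPM with CA-AAK-2 and 2992 ± 250 CPM in the double strain (mean ± SD, n = 3). The level of crtc-1 was 20.5 ± 2.62 CPM in N2, 189 ± 16 CPM with CA-CRTC-1 and 362 ± 15.6 CPM in the double strain. The double strain therefore held more crtc-1 RNA than the CA-CRTC-1 strain. Replicate 3 of the double strain stood apart from replicates 1 and 2, with 31 oocyte markers on average 0.63 lower and 16 hypodermis and seam markers 0.54 higher on the log2 scale, against a shift of 0.03 in the median of all genes at 5 CPM or more. For the 10 genes a call that changes without that library is given beside the result, and counts of list genes without it are given with that library's values further on.

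All 10 genes are protein coding and are spread over autosomes I to V in the WBcel235 annotation. The MCM genes are mcm-2 (WBGene00003154, chromosome II, 12001509 to 12006625), mcm-3 (WBGene00003155, V, 15056719 to 15059599), mcm-4 (WBGene00003156, I, 2318291 to 2321817), mcm-5 (WBGene00003157, III, 4288264 to 4291266), mcm-6 (WBGene00003158, III, 9794367 to 9798644) and mcm-7 (WBGene00003159, V, 4347166 to 4349768). The clamp gene pcn-1 (WBGene00003955) lies on chromosome IV at 4047937 to 4049448, rnr-1 (WBGene00004391) on III at 9225339 to 9228798, rnr-2 (WBGene00004392) on III at 4093308 to 4094921 and tyms-1 (WBGene00022455) on I at 5138250 to 5139382. Exons of 7 of the 10 overlap an exon of a gene on the opposite strand by 4 to 73 bases, and the library kit keeps no strand, so reads in those few bases cannot be assigned. Of the overlapping genes with a level in the tables, ekl-7 beside mcm-4 was the most abundant, at 33.4 CPM over all libraries.

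Per kilobase of exon, pcn-1 was the most abundant of the 10 in N2, at 90.9 CPM per kb, followed by rnr-2 at 57.3 and rnr-1 at 37.2 CPM per kb. The MCM genes lay close together, from 16.98 CPM per kb for mcm-3 through 24.1 for mcm-4, 24.4 for mcm-6, 24.5 for mcm-5 and 29.7 for mcm-2 to 29.9 for mcm-7. The thymidylate synthase gene tyms-1 was the least abundant, at 9.05 CPM per kb.

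The levels of all 10 genes followed the strains in nearly the same order. For 9 of the 10 the mean was lowest in N2, next in CA-CRTC-1, then in CA-AAK-2 and highest in the double strain, and for mcm-4 the CA-CRTC-1 mean lay above the CA-AAK-2 mean. The ratio of the highest to the lowest strain mean ran from 1.51 for mcm-2 to 2.97 for tyms-1. In each of the 3 comparisons with N2 all 10 genes had every transgenic library above every N2 library, which held for 34%, 38.8% and 44.7% of all tested genes in CA-CRTC-1, in CA-AAK-2 and in the double strain. The 3 comparisons share the N2 libraries and are not independent of each other. The samples are whole animals, so more cells that express these genes and more RNA per cell cannot be told apart.

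**Figure D1:**
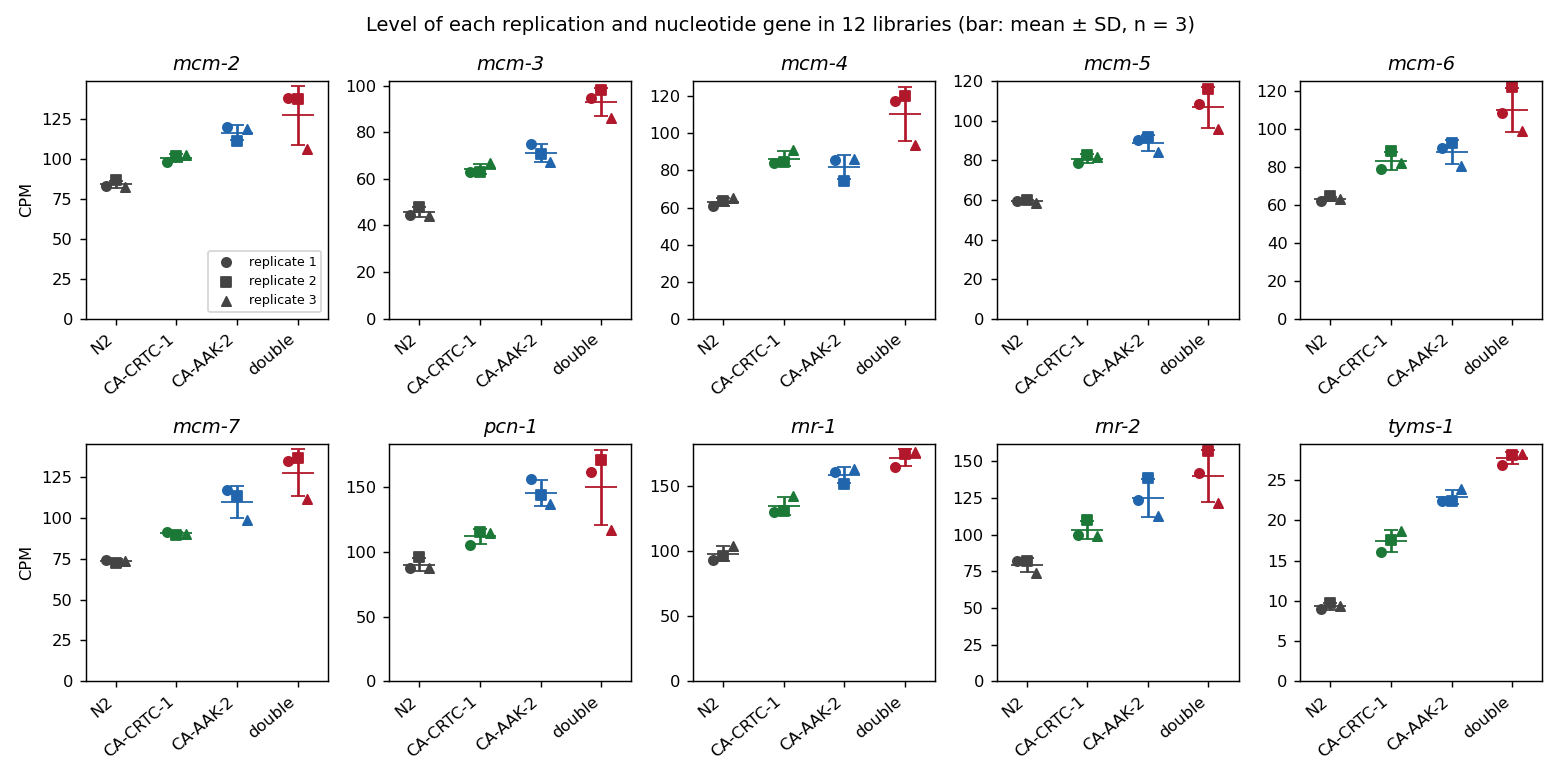
CPM of each of the 10 genes (vertical axis, from 0, with its own scale per gene) in the 3 libraries of each strain; point shapes mark replicates 1, 2 and 3, and the bar is the mean ± SD, n = 3. Every transgenic library lies above the N2 libraries, and replicate 3 of the double strain is the lowest of its strain for all but rnr-1 and tyms-1.

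Calls rest on limma, fitted to all genes on log2(CPM + 0.5). A call needs a p of 0.01 or less after Benjamini-Hochberg adjustment and a change of 1.5-fold or more. Differences below are on that log2 scale, ± SE, and each adjusted p is from that limma fit. In CA-CRTC-1 against N2, which asks what the altered coactivator changes alone, 1 of the 10 genes rose, against 6.62% of all 10509 genes tested. In CA-AAK-2 against N2, 5 of the 10 rose, against 8.2% of 10368 genes. In the double strain against N2, 9 of the 10 rose, against 15.6% of 10594 genes. None fell in any of the 3. The members' median difference was 0.42, 0.61 and 0.80 in CA-CRTC-1, in CA-AAK-2 and in the double strain, beside 0.07, 0.11 and 0.14 for the median of all tested genes. With the adjusted p alone and no fold threshold, 7, 10 and 10 of the 10 genes were higher than in N2, beside 10.8%, 23.9% and 33.2% of all genes, so most of the genes that missed the call did so on the size of the change.

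The median of all genes depends on the scaling. Rescaling the libraries by their median ratio shifted it to -0.03, -0.01 and -0.03 in CA-CRTC-1, in CA-AAK-2 and in the double strain. All 10 genes stayed above N2 under that scaling, with medians of 0.32, 0.49 and 0.63, but the number called became 1, 1 and 8. Of all genes tested under that scaling, 574 of 10563, 518 of 10418 and 1071 of 10600 were called higher, in the same order. Among all called genes, the share that was higher went with it from 75.3% to 61.7% for CA-CRTC-1, from 65.1% to 42.5% for CA-AAK-2 and from 69.4% to 48.1% for the double strain.

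**Figure D2:**
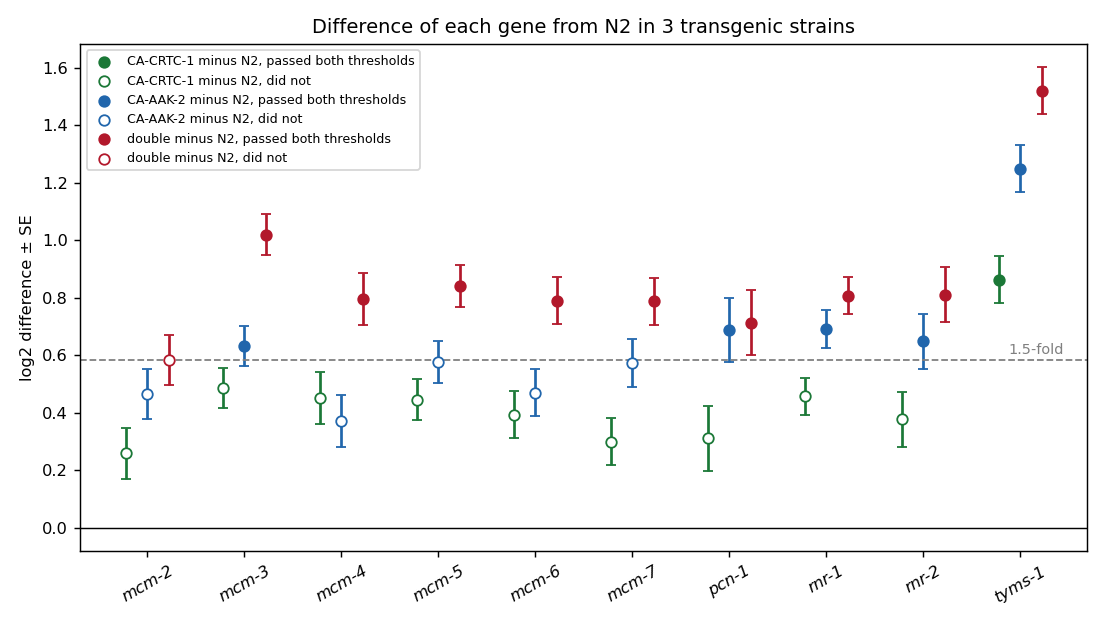
Difference of each gene from N2 on the log2(CPM + 0.5) scale (vertical axis, ± SE) in the 3 transgenic strains; filled points passed both thresholds and the dashed line marks 1.5-fold. Filled points number 1 for CA-CRTC-1, 5 for CA-AAK-2 and 9 for the double strain, and tyms-1 is the furthest from N2 in each.

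The MCM genes, which form the helicase, had similar differences. With CA-CRTC-1 none of the 6 passed, with CA-AAK-2 mcm-3 rose, and in the double strain 5 of 6 rose. mcm-3 measured 44.6, 48.1 and 44.1 CPM in N2 replicates 1, 2 and 3 and 62.9, 62.8 and 66.6 CPM with CA-CRTC-1. It measured 75.0, 70.8 and 67.1 CPM with CA-AAK-2 and 94.7, 98.2 and 86.3 CPM in the double strain. The 4 strains did not overlap in CPM of mcm-3, which had the widest span of the helicase genes. However, mcm-3 differed by only 0.15 between CA-AAK-2 and CA-CRTC-1 (95% interval -0.006 to 0.30, adjusted p = 0.13), which did not pass. Its difference from N2 was 0.49 ± 0.07 (adjusted p = 0.00014) with CA-CRTC-1, just under the fold threshold, 0.63 ± 0.07 (adjusted p = 1.6e-05) with CA-AAK-2 and 1.02 ± 0.07 (adjusted p = 4.1e-08) in the double strain. The call with CA-AAK-2 was lost under the median-ratio scaling (0.51) and with edgeR on the recovered reads (0.54).

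The narrowest span was that of mcm-2. It measured 82.9, 86.4 and 82.5 CPM in N2 and 97.9, 101.3 and 102 CPM with CA-CRTC-1. It measured 120, 111 and 118 CPM with CA-AAK-2 and 138, 137 and 106 CPM in the double strain. Replicate 3 of the double strain fell below all 3 CA-AAK-2 libraries, while the other strains kept apart from N2 and from each other. The difference from N2 was 0.26 ± 0.09 (adjusted p = 0.041) with CA-CRTC-1, 0.47 ± 0.09 (adjusted p = 0.00067) with CA-AAK-2 and 0.58 ± 0.09 (adjusted p = 5.5e-05) in the double strain, which just missed 1.5-fold. Without double replicate 3 the last became 0.71 and passed, as it did without N2 replicate 2 (0.61), so that all 6 helicase genes and all 10 members then passed in the double strain.

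mcm-4 was the exception to the order of the strains. It measured 61.0, 63.3 and 64.9 CPM in N2 and 83.8, 84.5 and 91.1 CPM with CA-CRTC-1. It measured 85.4, 74.2 and 85.9 CPM with CA-AAK-2 and 118, 120 and 93.7 CPM in the double strain. The CA-CRTC-1 and CA-AAK-2 libraries overlapped, and their difference of -0.08 (95% interval -0.28 to 0.11, adjusted p = 0.52) did not pass. Against N2 mcm-4 differed by 0.45 ± 0.09 (adjusted p = 0.0021) with CA-CRTC-1, 0.37 ± 0.09 (adjusted p = 0.0042) with CA-AAK-2 and 0.80 ± 0.09 (adjusted p = 4.8e-06) in the double strain, the last of which passed both thresholds.

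The other 3 helicase genes lay between these. mcm-5 went from 58.3 to 59.9 CPM over the N2 libraries to 95.9 to 116 CPM in the double strain, mcm-6 from 62.3 to 64.5 CPM to 99.1 to 122 CPM, and mcm-7 from 72.1 to 74.4 CPM to 111 to 137 CPM. They rose in the double strain by 0.84, 0.79 and 0.79. In the CA-AAK-2 strain mcm-5 differed from N2 by 0.58 ± 0.07 (adjusted p = 3.4e-05) and mcm-7 by 0.57 ± 0.08 (adjusted p = 0.0001), both just under 1.5-fold. mcm-5 passed without N2 replicate 2 (0.59) or CA-AAK-2 replicate 3 (0.62), and mcm-7 passed without CA-AAK-2 replicate 3 (0.65). mcm-6 differed there by 0.47 ± 0.08 (adjusted p = 0.00038).

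As parts of 1 ring, the MCM genes can also be read as shares of their summed level per kilobase of exon. mcm-7 and mcm-2 held the largest shares in N2, 20.0 ± 0.57% and 19.8 ± 0.28%, and mcm-3 the smallest, 11.3 ± 0.40%. In the double strain the mcm-3 share was 13.3 ± 0.61% and the mcm-2 share 17.2 ± 0.80%, and for both genes the N2 and double libraries did not overlap. The mcm-4, mcm-5, mcm-6 and mcm-7 shares in the double strain were 16.2, 16.98, 16.3 and 20.0%, beside 16.1, 16.4, 16.3 and 20.0% in N2. No test was run on the shares.

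The clamp gene pcn-1 rose with CA-AAK-2 and in the double strain. It measured 87.4, 95.7 and 87.2 CPM in N2 and 106, 116 and 114 CPM with CA-CRTC-1. It measured 156, 144 and 137 CPM with CA-AAK-2 and 162, 171 and 117 CPM in the double strain. The CA-AAK-2 libraries were all above those of N2 and CA-CRTC-1, and replicate 3 of the double strain fell back to just above the CA-CRTC-1 libraries. pcn-1 rose by 0.69 ± 0.11 (adjusted p = 0.00026) with CA-AAK-2 and by 0.71 ± 0.11 (adjusted p = 8.9e-05) in the double strain. Both calls were lost under the median-ratio scaling, at 0.57 and 0.54. Its difference of 0.31 ± 0.11 with CA-CRTC-1 did not pass (adjusted p = 0.055), nor did the direct difference of 0.38 ± 0.11 between CA-AAK-2 and CA-CRTC-1 (adjusted p = 0.021). The double and CA-AAK-2 strains differed by 0.02 (95% interval -0.22 to 0.27), the smallest difference of the 10 genes in that comparison, and its sign changed under other settings.

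The large and small subunits of ribonucleotide reductase, rnr-1 and rnr-2, both rose with CA-AAK-2 and in the double strain. rnr-1 measured 93.2, 96.7 and 104.3 CPM in N2, 131, 131 and 143 CPM with CA-CRTC-1, 161, 152.02 and 163 CPM with CA-AAK-2 and 164, 175 and 176 CPM in the double strain. The 4 strains did not overlap in CPM of rnr-1, and double replicate 3 was not low. The lowest double library (164 CPM) lay just above the highest CA-AAK-2 library (163 CPM). However, rnr-1 differed by only 0.12 ± 0.06 between the double and CA-AAK-2 strains (adjusted p = 0.19), which did not pass. Its difference from N2 was 0.46 ± 0.06 (adjusted p = 0.00011) with CA-CRTC-1, under the fold threshold, 0.69 ± 0.06 (adjusted p = 4.7e-06) with CA-AAK-2 and 0.81 ± 0.06 (adjusted p = 1.7e-07) in the double strain. The median-ratio scaling took the CA-AAK-2 difference to 0.57, under the fold threshold.

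rnr-2 was more scattered. It measured 81.9, 82.3 and 73.9 CPM in N2 and 100.1, 110 and 99.2 CPM with CA-CRTC-1. It measured 124, 138 and 112.9 CPM with CA-AAK-2 and 141.97, 157 and 122 CPM in the double strain. The last 2 strains overlapped, and replicate 3 was the lowest library in every strain. The difference from N2 was 0.38 ± 0.10 (adjusted p = 0.0097) with CA-CRTC-1, under the fold threshold, 0.65 ± 0.10 (adjusted p = 0.00012) with CA-AAK-2 and 0.81 ± 0.10 (adjusted p = 6.3e-06) in the double strain. The call with CA-AAK-2 was lost without CA-AAK-2 replicate 2 (0.57), under the median-ratio scaling (0.53) and with edgeR (0.56).

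The thymidylate synthase gene tyms-1, whose enzyme makes the thymidine nucleotide found only in DNA, was the 1 gene of the 10 that rose in all 3 strains. It measured 8.93, 9.77 and 9.33 CPM in N2, 16.04, 17.5 and 18.7 CPM with CA-CRTC-1, 22.4, 22.4 and 23.9 CPM with CA-AAK-2 and 26.9, 28.1 and 28.3 CPM in the double strain. The strains formed 4 steps without overlap, each wider than the spread between replicates. The differences from N2 were 0.86 ± 0.08 (adjusted p = 2.6e-06), 1.25 ± 0.08 (adjusted p = 3.6e-07) and 1.52 ± 0.08 (adjusted p = 3.7e-09). Unlike most of the other genes it was not lower in double replicate 3, where it lay 0.04 above the mean of replicates 1 and 2.

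The ratios between genes within a library set the genes apart without the scaling between libraries. The log2 ratio of tyms-1 to rnr-1 was -3.32 ± 0.09 in N2, -2.92 ± 0.06 with CA-CRTC-1, -2.77 ± 0.05 with CA-AAK-2 and -2.61 ± 0.01 in the double strain (SD, n = 3), without overlap between the strains. The log2 ratio of rnr-1 to rnr-2 was 0.30 ± 0.17, 0.38 ± 0.14, 0.35 ± 0.20 and 0.30 ± 0.20 in the same order, and all 4 strains overlapped. The log2 ratio of mcm-3 to mcm-2 was -0.87 ± 0.03 in N2 and -0.65 ± 0.04, -0.71 ± 0.09 and -0.44 ± 0.13 in the 3 transgenic strains. Every transgenic library lay above N2 in that ratio, and the CA-CRTC-1 and CA-AAK-2 libraries overlapped. These ratios were chosen after the values were seen and carry no test.

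**Figure D3:**
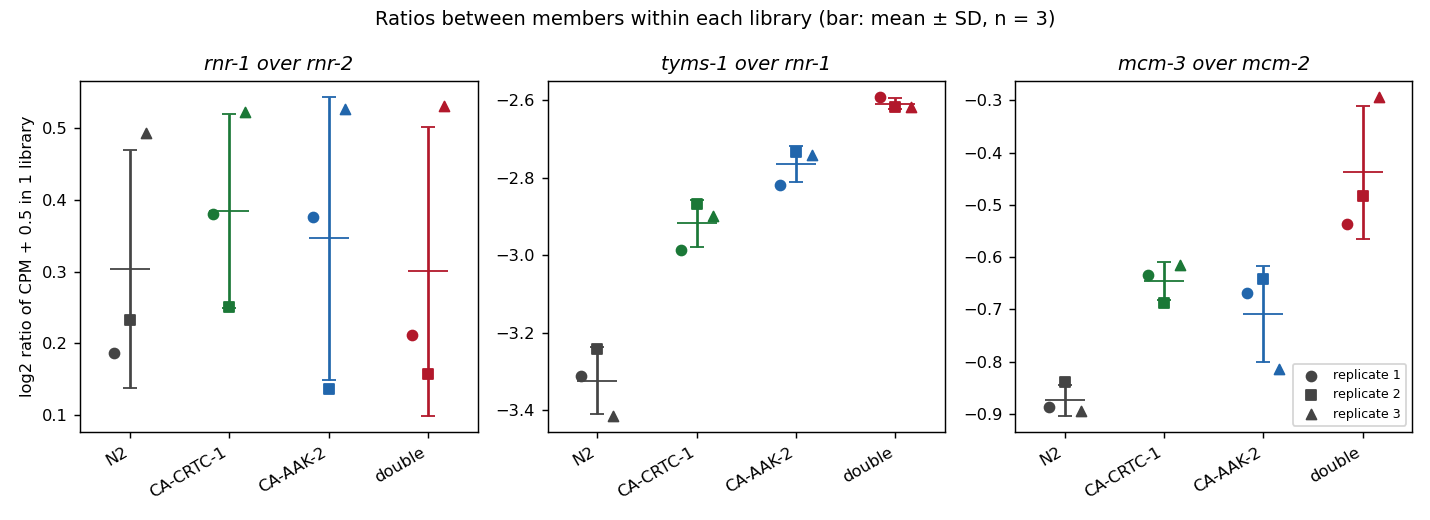
Log2 ratio of CPM + 0.5 between pairs of the genes within each library (vertical axis, scale per panel), by strain; point shapes mark replicates and bars are mean ± SD, n = 3. The tyms-1 to rnr-1 ratio climbs from -3.32 in N2 to -2.61 in the double strain, while the rnr-1 to rnr-2 ratio overlaps between all strains.

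Comparing the strains that share a transgene asks what the second transgene adds, but the shared transgene was not at the same level in both. RNA of crtc-1 was at 189 CPM with CA-CRTC-1 and 362 CPM in the double strain. That of aak-2 was at 2530 CPM with CA-AAK-2 and 2992 CPM in the double strain. The part of these unequal levels in the differences was not tested. In the double strain against CA-AAK-2, 0 of the 10 genes were called, against 7.66% of 10607 genes called higher. At an unadjusted p under 0.05 in limma there were 6, and the share of all genes there was not counted. With edgeR on the recovered reads 0 were called too. With the adjusted p alone 3 were higher, against 13.1% of all genes. They were mcm-4 (0.43 ± 0.09, adjusted p = 0.0023), mcm-3 (0.39 ± 0.07, adjusted p = 0.00067) and mcm-6 (0.32 ± 0.08, adjusted p = 0.0069), all of the helicase. The double libraries lay wholly above the CA-AAK-2 libraries for 6 of the 10 genes, against 22.6% of all genes. The genes that overlapped were mcm-2, mcm-7, pcn-1 and rnr-2.

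In the double strain against CA-CRTC-1, 1 of the 10 genes rose, tyms-1, by 0.66 ± 0.08 (adjusted p = 4.2e-05), against 4.68% of 10727 genes called higher. With the adjusted p alone 9 were higher, against 14.1%, and only pcn-1 missed that threshold (0.40 ± 0.11, adjusted p = 0.012). All 10 had the double libraries wholly above the CA-CRTC-1 libraries, against 31.6% of all genes. The 9 genes other than tyms-1 differed by 0.33 to 0.53. mcm-3 had the upper value and passed without double replicate 3, at 0.59.

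Between the strains with a single transgene, CA-AAK-2 against CA-CRTC-1, 0 of the 10 genes were called, against 1.6% of 10532 genes called higher. At an unadjusted p under 0.05 in limma there were 6, again without a share of all genes, and edgeR called 0. Differences ran from -0.08 for mcm-4 to 0.39 ± 0.08 for tyms-1 (adjusted p = 0.0032), the only gene of the 10 past the adjusted p. For mcm-3 to mcm-6 the 95% intervals included 0, and for pcn-1 the interval ran from 0.14 to 0.62.

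Whether CA-CRTC-1 shifts these genes by as much with CA-AAK-2 as without it was tested as an interaction, the double minus CA-AAK-2 difference less the CA-CRTC-1 minus N2 difference. The value was below 0 for all 10 genes, with a median of -0.16 beside -0.08 for all genes, and 1 was called lower, against 4.82% of 10576 genes. That gene was tyms-1, at -0.59 ± 0.12 (95% interval -0.84 to -0.34, adjusted p = 0.0025): it was 0.86 higher with CA-CRTC-1 on the N2 background and 0.27 ± 0.08 higher (adjusted p = 0.019) on the CA-AAK-2 background. Its value lay just past 1.5-fold, and it fell short of that size without N2 replicate 1 (-0.56), CA-CRTC-1 replicate 3 (-0.54), CA-AAK-2 replicate 3 (-0.56) or double replicate 1 (-0.57), with an adjusted p that stayed at or under 0.0090. It also fell short with a pseudocount of 2 (-0.52), the median-ratio scaling (-0.54), equal totals (-0.55) and edgeR (-0.58). rnr-1 followed at -0.34 ± 0.09 (adjusted p = 0.017). For the helicase genes the interaction ran from -0.18 to -0.03, with an adjusted p of 0.22 or more, and the interval for mcm-4 was -0.30 to 0.25. All these interactions set unequal levels of crtc-1 RNA side by side, 189 CPM with CA-CRTC-1 and 362 CPM in the double strain. The part of that inequality was not tested.

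The other genes of the replication pathway were followed in lists by role. Of 9 measured genes of origin recognition and licensing, 0 rose with CA-CRTC-1, 5 with CA-AAK-2 and 6 in the double strain, with medians of 0.31, 0.69 and 0.88. Among them orc-5, of the origin recognition complex, rose by 0.81 ± 0.09 with CA-AAK-2 and 0.89 ± 0.09 in the double strain, and cdt-1, which brings the MCM ring to origins, by 0.74 ± 0.10 and 0.88 ± 0.10. The same list holds gmn-1, the worm geminin, a protein that blocks CDT-1, and it rose too, by 0.89 ± 0.11 and 0.92 ± 0.11. mcm-10, which is not part of the ring, rose by 0.69 ± 0.11 and 0.92 ± 0.11. Under the median-ratio scaling mcm-10 lost the call with CA-AAK-2, and the list had 4 rises with CA-AAK-2 and 5 in the double strain.

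Of 14 tested genes that activate the helicase and protect the fork, 0, 5 and 8 rose in CA-CRTC-1, in CA-AAK-2 and in the double strain, with medians of 0.24, 0.50 and 0.62. The worm CDC45 gene, evl-18, rose from 17.6 CPM in N2 to 29.9 CPM with CA-AAK-2 (0.75 ± 0.08) and 32.8 CPM in the double strain (0.88 ± 0.08). psf-3, of the GINS complex, rose by 0.87 ± 0.12 with CA-AAK-2, and cdc-7, a kinase that fires origins, by 0.71 ± 0.11. Of 23 genes of polymerases, primase and other fork proteins besides pcn-1, 0, 6 and 13 rose, with medians of 0.25, 0.48 and 0.62. DNA ligase lig-1 rose by 0.76 ± 0.07 with CA-AAK-2 and 0.85 ± 0.07 in the double strain. In the double strain pole-1, of polymerase epsilon, rose by 0.75 ± 0.08, and rpa-1, which coats single-stranded DNA, by 0.62 ± 0.06. No tested gene of these 3 lists fell against N2. Under the median-ratio scaling the helicase activation list had 3 rises in the double strain and the fork list 3 with CA-AAK-2 and 3 in the double strain. The calls of pole-1 and rpa-1 were among those lost.

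The nucleotide genes split. Of 6 further genes of deoxynucleotide and thymidylate synthesis, 0, 3 and 1 rose and 0, 0 and 2 fell, with medians of 0.16, 0.42 and 0.12, the last of which became -0.05 under the median-ratio scaling. dut-1, which removes dUTP, measured 36.9 CPM in N2, 53.4 with CA-CRTC-1, 70.2 with CA-AAK-2 and 90.5 CPM in the double strain, and rose by 0.92 ± 0.10 with CA-AAK-2 and 1.28 ± 0.10 in the double strain. Thymidylate kinase, dtmk-1, measured 38.6, 50.95, 69.2 and 51.6 CPM in the same order and passed with CA-AAK-2 (0.84 ± 0.10) but not in the double strain (0.41 ± 0.10). Its interaction was -0.82 ± 0.14 (adjusted p = 0.00093), larger in size than that of tyms-1. Dihydrofolate reductase, dhfr-1, which recycles the folate that thymidylate synthase uses, rose with CA-AAK-2 (0.69 ± 0.10) and differed by 0.51 ± 0.10 from N2 in the double strain, under the fold threshold. The median-ratio scaling took away its call with CA-AAK-2, which left 2 rises there in this list.

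The enzymes that load folate with 1-carbon units fell in the double strain. mel-32, serine hydroxymethyltransferase, was at 743 CPM in N2 and 420 CPM in the double strain (-0.83 ± 0.07, adjusted p = 5.3e-07), and dao-3, a methylenetetrahydrofolate dehydrogenase, at 79.5 and 41.2 CPM (-0.96 ± 0.11, adjusted p = 4.8e-06). Neither passed with a single transgene, and both fell against CA-AAK-2 as well, by 0.75 and 0.80. The interaction was -0.69 ± 0.11 (adjusted p = 0.00037) for mel-32, which was called, and -0.49 ± 0.16 (adjusted p = 0.038) for dao-3, which was not.

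Of 13 genes on the route to purine and pyrimidine bases, which also serves RNA, 7 fell in the double strain against N2, beside 6.87% of all genes called lower. With CA-CRTC-1 1 of the 13 fell and with CA-AAK-2 2, beside 2.17% and 4.4% of all genes. None of the 13 rose in any strain, and the medians were -0.15, -0.17 and -0.76 in CA-CRTC-1, in CA-AAK-2 and in the double strain. umps-1, the final enzyme of UMP synthesis, fell in all 3 strains, by 0.80 ± 0.07, 0.74 ± 0.07 and 1.246 ± 0.07. In the double strain atic-1, which closes the purine ring, went from 118.6 to 34.2 CPM (-1.78 ± 0.09, adjusted p = 2.3e-09), pfas-1, of the same pathway, from 112.6 to 46.5 CPM (-1.27 ± 0.08), and aprt-1, which salvages adenine, from 86.6 to 43.6 CPM (-0.98 ± 0.06).

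**Figure D4:**
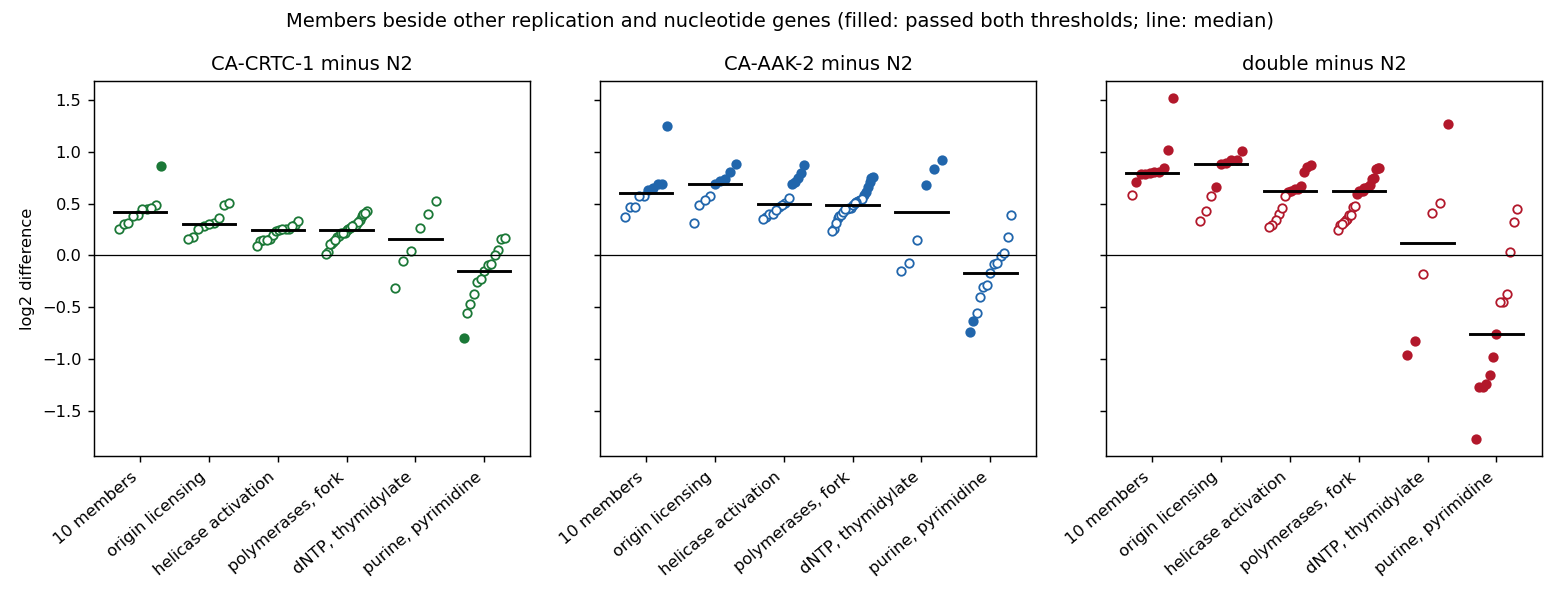
Difference from N2 on the log2(CPM + 0.5) scale (vertical axis) of each tested gene in the members and 5 lists of replication and nucleotide genes, 1 panel per strain; filled points passed both thresholds and lines are medians. The 3 replication lists sit above 0 with the members, and in the double strain the purine and pyrimidine list lies mostly below 0, with a median of -0.76.

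Genes of the wider cell cycle were mostly above N2 too. Of 52 tested 1, 8 and 22 rose in CA-CRTC-1, in CA-AAK-2 and in the double strain and 0 fell, with medians of 0.22, 0.44 and 0.57. The mitotic cyclins cyb-2.1 (1.17 ± 0.12) and cyb-3 (0.96 ± 0.11) rose with CA-AAK-2, and the condensin gene smc-4 (0.75 ± 0.06) and icp-1, of the chromosomal passenger complex (0.85 ± 0.07), rose in the double strain. The 1 gene that rose with CA-CRTC-1 was the phosphatase gene cdc-25.2 (1.15 ± 0.15), which mitotic entry uses. The median-ratio scaling left 4 rises with CA-AAK-2 and 8 in the double strain, where smc-4 lost its call. Of 25 genes of DNA damage checkpoints and repair 0, 1 and 6 rose and 0 fell, and under the median-ratio scaling 0, 0 and 2 rose.

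Germline markers showed how these genes stood beside germ cells. All germline markers present in the tables, which hold 57 of the 60 sperm genes listed, had a level above 0 in some library, and the sperm gene msd-1 was the only one under 1 CPM on average. For germ stem cells and the mitotic zone, 0 of 16, 3 of 15 and 7 of 15 tested genes rose, with medians of 0.14, 0.42 and 0.50. They included sygl-1, a Notch target that keeps germ stem cells (0.75 ± 0.10 with CA-AAK-2), and, in the double strain, glp-1, the germline Notch receptor (0.67 ± 0.07), and lst-1, another Notch target (0.81 ± 0.10). The rises were not confined to Notch genes. With CA-AAK-2 mex-3 (0.75 ± 0.13) and nos-2 (1.17 ± 0.21) rose too, and in the double strain gld-3 (0.78 ± 0.08) and fog-1 (0.92 ± 0.11). The call of glp-1 was lost under the median-ratio scaling. Of 23 genes of germ granules and germline identity 0, 1 and 1 rose, with medians of 0.10, 0.31 and 0.33. Of 26 genes of meiotic chromosomes 0, 2 and 0 rose, with medians of 0.11, 0.40 and 0.35. Under the median-ratio scaling the medians were 0.04, 0.31 and 0.33 for the stem cell list, -0.0073, 0.19 and 0.16 for the granule list and 0.0075, 0.28 and 0.19 for the meiotic list, and the rises numbered 0, 3 and 5 for the stem cell list and 0 in every strain for the granule and meiotic lists.

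Oocyte markers had larger median differences than the replication genes. Of 28 tested with CA-CRTC-1 and 29 in the other strains, 8, 25 and 26 rose, with medians of 0.53, 0.99 and 1.35. The eggshell gene cpg-2, for example, rose from 204 CPM in N2 to 324, 466 and 669 CPM. Its call with CA-CRTC-1 was lost under the median-ratio scaling, which left 4, 23 and 24 rises in the list. The summed level of the 31 oocyte markers was 1868 to 2061 CPM over the N2 libraries, 2590 to 2729 with CA-CRTC-1, 3492 to 3639 with CA-AAK-2 and 3549 to 5883 in the double strain. The sum in the 57 sperm genes was 3636 to 4671 CPM in N2, 2948 to 4082 with CA-CRTC-1, 4717 to 5042 with CA-AAK-2 and 3907 to 4793 in the double strain. In these sums CA-AAK-2 lay above CA-CRTC-1 and just above N2, and the other pairs of strains overlapped. In the mean log2 level of the sperm list CA-AAK-2 and N2 overlapped, at 5.41 in CA-AAK-2 replicate 3 and 5.42 in N2 replicate 1. Of 51 or 52 sperm genes tested, 0, 4 and 3 rose and 1, 2 and 1 fell, with medians of -0.15, 0.26 and 0.13, the last being -0.04 under the median-ratio scaling. The part of oocyte and other germline RNA in the members' differences was not tested.

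Set beside each list within a library, the mean log2 level of the 10 genes gained 0.38, 0.38 and 0.61 on the granule list from N2 to CA-CRTC-1, to CA-AAK-2 and to the double strain. It gained 0.32, 0.26 and 0.52 on the meiotic list and 0.24, 0.31 and 0.38 on the stem cell list. On the cell cycle list the gains were 0.16, 0.14 and 0.24. Beside the other replication genes the gains were 0.20, 0.14 and 0.31 on the fork protein list, 0.22, 0.07 and 0.32 on the helicase activation list and 0.12, -0.0014 and 0.13 on the licensing list, whose gap to the members had an SD of 0.13 in N2 and 0.18 with CA-AAK-2 (n = 3). Against the oocyte list the members lost ground, by 0.17, 0.39 and 0.54. For the granule, meiotic and stem cell lists every transgenic library had a larger gap between members and list than any N2 library. These gaps do not depend on the scaling between libraries apart from the pseudocount.

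**Figure D5:**
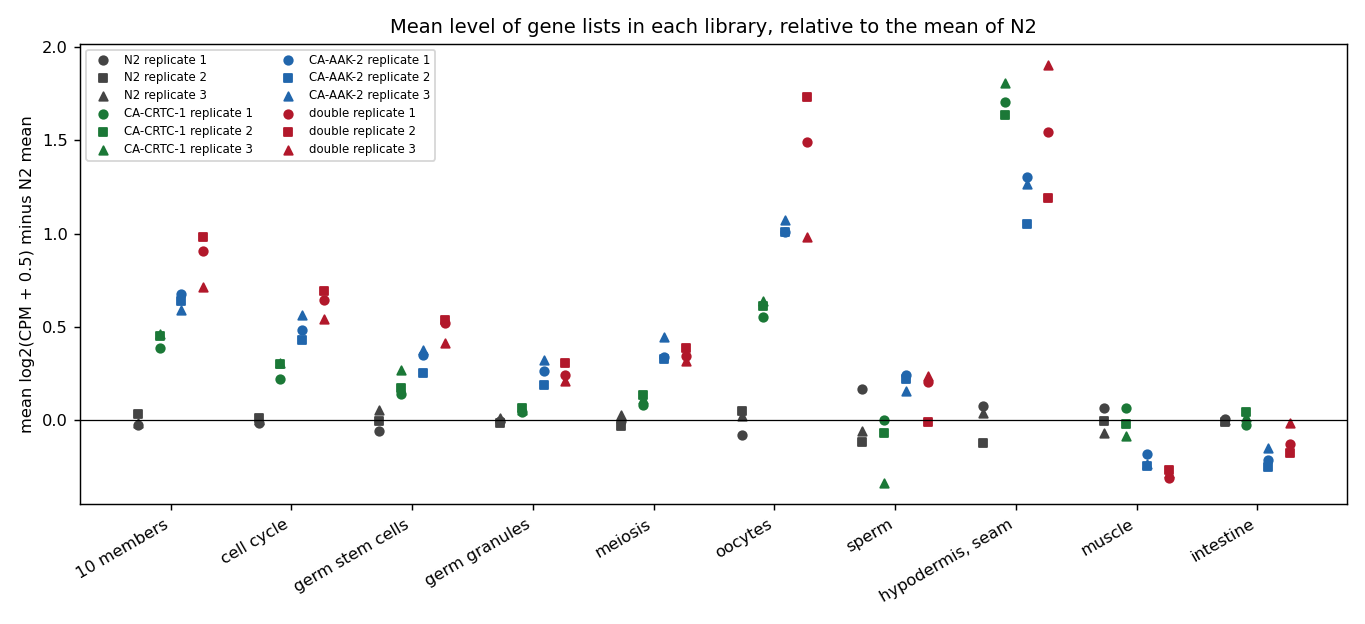
Mean log2(CPM + 0.5) of the 10 genes and of 9 marker lists in each library, less the N2 mean of that list (vertical axis); colours mark strains and shapes replicates. The 10 genes lie 0.71 to 0.98 above N2 in the double libraries, between the oocyte list above them and the granule and meiotic lists below.

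Somatic markers differed in their own ways. Of the hypodermis and seam genes 11 of 15, 10 of 14 and 12 of 15 rose, with medians of 1.23, 1.19 and 1.05, and the summed level of the 16 markers was 1262 to 1295 CPM in N2 and 2841 to 3243, 2572 to 3106 and 1911 to 3894 CPM in CA-CRTC-1, in CA-AAK-2 and in the double strain. Such genes are tied to the moult, and whether the strains had reached the same point in L4 was not tested. Of 17 muscle genes 0, 0 and 4 fell and 0 rose. Of 16 intestinal genes 1, 1 and 4 rose and 0, 2 and 3 fell, and under the median-ratio scaling 1, 1 and 2 rose and 1, 3 and 6 fell. Of the pharynx genes 2 of 12 rose with CA-CRTC-1, 5 of 10 fell with CA-AAK-2, and 1 of 11 rose and 1 fell in the double strain. Of 16 or 17 neuronal genes 0, 0 and 4 rose and 0 fell, with the 4 of the double strain becoming 2 without its replicate 3 and 1 under the median-ratio scaling. Of 12 genes of somatic gonad and vulva 0, 3 and 3 rose and 0, 0 and 2 fell.

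Replicate 3 of the double strain was low in the oocyte list and in 8 of the 10 genes. Against the mean of replicates 1 and 2 it was lower by 0.51 in pcn-1, 0.38 in mcm-2, 0.34 in mcm-4, 0.29 in mcm-7 and rnr-2, 0.23 in mcm-5, 0.22 in mcm-6 and 0.16 in mcm-3, and higher by 0.05 in rnr-1 and 0.04 in tyms-1. The other origin licensing genes were 0.08 lower, the other fork genes 0.10 lower and the cell cycle list 0.12 lower. Without that library the double strain had 7 rises against N2 in the licensing list, 9 in the helicase activation list, 12 in the fork list besides pcn-1, 28 in the cell cycle list and 28 in the oocyte list. The hypodermis and seam list then had 10 rises, the intestinal list 3 rises and 3 falls, the sperm list 3 rises and 2 falls, the muscle list 3 falls and the pharynx list 1 rise and 0 falls. The part of that library's make-up in these values was not tested.

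Over the 12 libraries, mcm-5 followed the mean centred profile of the 10 genes most closely, with a root mean square distance of 0.04 on the log2 scale, and tyms-1 least, at 0.27. Among 6313 other named genes at 5 CPM or more on average the nearest to that profile were pup-2 (0.04), citk-2 (0.05), acs-13, ergo-1, let-99, hcp-6 and sqv-5 (each 0.06) and icp-1 (0.07), beside a median of 0.34. pup-2 measured 97.6 ± 4.09 CPM in N2, 132 ± 3.02 with CA-CRTC-1, 154 ± 4.34 with CA-AAK-2 and 184 ± 24.6 CPM in the double strain. The members make up the profile, so their own distances are descriptions.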

How the data were processed

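Polyadenylated RNA from 4 strains, 3 libraries each, was sequenced in 50 cycles from both ends, per the labels' protocols. The authors deposited CPM corrected in edgeR for sequencing depth and composition, per the series text. The tools were CASAVA 1.8.2, cutadapt, TopHat2 2.0.8, HTSeq and edgeR, per the submitters' processing notes. The series text names ce6 and WS238, so the build is uncertain, and WBcel235 was used to place genes and measure their exons. Of 14508 entries, 3 repeated names were merged, leaving 14505 genes, of which 13820 had a symbol. Steps of each column gave whole reads for 100% of values within 0.02, 30887631 to 48989013 per library, and 1 read is worth 0.0178 to 0.0285 CPM.

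The tests used limma 3.58.1 (R 4.3.3) on log2(CPM + 0.5), trended, with all 12 libraries fitted together over every gene whose mean reached 1 CPM overall and 5 CPM over the libraries compared. Calls need 1.5-fold and a Benjamini-Hochberg adjusted p no larger than 0.01, the thresholds of the series text. Groups came from the sample titles. The members and the 19 gene lists were chosen with earlier results of these data known. Genes named are the 10 members in every comparison, up to 4 called genes by adjusted p of each list per comparison with N2, and the 8 genes of nearest profile. Others were named after their values were seen, among them the values of listed genes in comparisons without N2. Alternatives were pseudocounts, filters, scalings, fits of the compared groups, an untrended prior, the replicate number as block, edgeR 4.0.16 run on recovered reads, no fold threshold at an adjusted p of 0.05, and each library left out. Over all genes edgeR called 938, 1266 and 2268 genes against N2 for CA-CRTC-1, for CA-AAK-2 and for the double strain, where limma called 924, 1306 and 2383. Calls were tested on simulated data for CA-AAK-2 against N2. There limma called 1 of 50 genes changed 1.3-fold, 15 of 50 changed 1.5-fold and 47 of 47 tested genes changed 2-fold. Changes of 1.5-fold or less are thus mostly missed by the calls. Promoter sequences and motifs were not analysed here.

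Replicate numbers come from the titles, with no word on what equal numbers have in common. Same-numbered libraries of CA-AAK-2 and the double strain deviated together from their strain means, with correlations of 0.252, 0.313 and 0.275. All exceed 0.1, so these numbers were taken to mark pairs, on the evidence of the values alone. Other pairs of strains failed that rule, as not every same-numbered pair of libraries exceeded 0.1. Among them replicate 3 of N2 correlated at 0.371 with replicate 3 of CA-CRTC-1 and at 0.362 with replicate 3 of CA-AAK-2. N2 replicate 1 and CA-CRTC-1 replicate 2, of unlike number, correlated at 0.334. The differences, intervals and adjusted p given for the double strain against CA-AAK-2 are from the fit without pairs. With replicate number as a block, 0 members were called in that comparison.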

Additional observations from a re-analysis of the deposited data

Results flagged for a closer look

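The difference that CA-CRTC-1 made to tyms-1 was smaller on the CA-AAK-2 background than on that of N2, an interaction of -0.59 ± 0.12 on the log2(CPM + 0.5) scale (limma, adjusted p = 0.0025). The value is given here because the interaction passed both thresholds, and all 3 CA-CRTC-1 libraries were above all 3 N2 libraries and all 3 double libraries above all 3 CA-AAK-2 libraries, by 0.86 and 0.27 on average. It lay just past 1.5-fold and fell short of that size, with an adjusted p still under 0.01, with a pseudocount of 2 (-0.52), the median-ratio scaling (-0.54), equal totals (-0.55), edgeR (-0.58) and without N2 replicate 1 (-0.56), CA-CRTC-1 replicate 3 (-0.54), CA-AAK-2 replicate 3 (-0.56) or double replicate 1 (-0.57). Among the other genes of deoxynucleotide and thymidylate synthesis dtmk-1 (-0.82) and mel-32 (-0.69) had called interactions of larger size. In the purine and pyrimidine list 3 of 13 genes had an interaction called lower. RNA of crtc-1 was at 189 CPM with CA-CRTC-1 and 362 CPM in the double strain, so these interactions compare unequal levels of it. The part of that inequality was not tested.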

How the results depend on the processing

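Over 1610 alternative values for the 10 genes, 1539 kept their direction and their side of the thresholds, 16 lost the call, 42 gained it and 13 changed sign. Many of these values had little room to change. Leaving out a library of a strain outside a comparison does not alter the difference, and each change of filter left all 70 values the same. Of the 42 gains, 34 came from the adjusted p of 0.05 without a fold threshold. With an adjusted p of 0.05 and no fold threshold, the members past the test numbered 9 for CA-CRTC-1 and 10 for CA-AAK-2 against N2, 5 for the double strain against CA-AAK-2 and 10 against CA-CRTC-1, 5 for CA-AAK-2 against CA-CRTC-1 and 2 for the interaction. The share of all genes at that threshold was not counted. At the stricter adjusted p of 0.01 in limma and any fold, 10.8%, 23.9%, 13.1% and 14.1% were higher in the first 4 of these comparisons. For CA-AAK-2 against N2 the number of members called was 1 under the median-ratio scaling and 3 with edgeR. Of all genes tested, 518 of 10418 and 588 of 10368 were called higher there. For the interaction it was 0 with a pseudocount of 2, the median-ratio scaling, equal totals or edgeR, where tyms-1 was at -0.52, -0.54, -0.55 and -0.58 with an adjusted p of 0.0038, 0.0025, 0.0034 and 0.0017. Leaving out 1 library gave 0 to 1 for the interaction, 4 to 7 for CA-AAK-2 against N2 and 1 to 2 for the double strain against CA-CRTC-1. With replicate number as a block 0 members were called in the double strain against CA-AAK-2, also in a fit of those strains alone, and the block changed no other call of a member.

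The sign changed for pcn-1 in the double strain against CA-AAK-2 under the median-ratio scaling (-0.026) and edgeR (-0.0059), and ran from -0.079 to 0.19 without 1 library. It changed for the interaction of mcm-4 under the median-ratio scaling (0.025), equal totals (0.013) and edgeR (0.025), and that ran from -0.095 to 0.087 without 1 library. The interaction of mcm-7 ran from -0.16 to 0.010 without 1 library. No value of these passed the threshold. The gap to the oocyte list moved with CA-CRTC-1 to -0.20 and -0.11 at pseudocounts of 0.1 and 2, and that to the sperm list with CA-AAK-2 to 0.42 at 2. Under the median-ratio scaling, added after seeing the data for the lists, counts of called list genes became 3 for helicase activation in the double strain, 3 and 3 for fork proteins and 4 and 8 for the cell cycle with CA-AAK-2 and in the double strain, 2 falls for purines and pyrimidines and 4 for oocytes with CA-CRTC-1, 0 and 0 for granules, 0 for meiosis and 2 for sperm with CA-AAK-2. The cause of these changes was not tested.

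Depth limits tyms-1 most, which had 313 to 548 reads in the N2 libraries. All comparisons rest on 3 libraries a strain, on the scaling chosen and on whole animals with mixed cells.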

Other observations

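The ratio of rnr-1 to rnr-2 within a library sorted by replicate number and not by strain. Replicate 3 had the highest log2 ratio in each of the 4 strains, at 0.49 in N2, 0.52 with CA-CRTC-1, 0.53 with CA-AAK-2 and 0.53 in the double strain, whereas replicates 1 and 2 lay between 0.14 and 0.38. Of the 45 pairs among the 10 genes, 17 had the same replicate number at the top or the bottom in all 4 strains, and in 13 of those it was replicate 3. The pairs share genes and are not independent, and many of those 13 contain rnr-1. The share among pairs of other genes was not counted. What a replicate number shares is not stated in the labels, and the pattern was noticed in these values and not tested.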
